A study of Panax japonicus with 15 samples.

Results

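The fruit wall of Panax japonicus, a medicinal relative of ginseng, was compared between the R period and the Y period, 2 of the 5 fruit-colour periods of the series. The 6 libraries, 3 from R and 3 from Y, are 6 of 15 in all, and the other 9 come from the G, B and P periods, 3 from each. The labels describe all 15 as pericarp freed from the seed, with no treatment other than the period; they do not spell out the letters, order the periods or name a control. They call the 3 libraries of a period biological replicates without tying them to plants or days, and p-values here refer to the spread among these libraries, which may be technical. The labels place the species in the mountains of Guizhou, China; genotype and plant age were not used here.

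As fruits colour, chloroplasts in the fruit wall lose chlorophyll while carotenoids accumulate in plastids and anthocyanins, made by the flavonoid pathway, accumulate in vacuoles. These changes are known to go with changes in the transcription of pigment pathway genes, and in ripening fruits also of genes for cell wall loosening and hormone response. The study asked how the colour periods relate to the expression of such genes. The deposited table does not pair its identifiers with gene names, so no cluster is given a function here, and the tissue label was not checked against marker genes.

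Each row of the table is a transcript cluster, a group of assembled transcripts named Cluster-number.number, with a TPM value per library. TPM is a length-corrected abundance whose sum is the same in every library, so read depth is unknown and no counting error is given. Tested were clusters that reached 1 TPM in 3 or more of the 6 R and Y libraries, which kept 81003 of 462117 clusters. These held between 86.8% and 87.9% of TPM in each of the 6 libraries. The difference is the mean log2(TPM + 1) of R minus that of Y, which understates the change of low clusters. Between 157065 and 180948 clusters lay above 0 TPM in a Y library and between 168964 and 177437 in an R library. Y replicate 3 was the lowest of the 6.

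R and Y differed little across the tested clusters. The pair was taken as the most alike of the periods, so a small difference was part of the choice. In whole pericarp, a change in the share of a cell type cannot be told apart from a change of RNA within cells, and several clusters may belong to 1 gene. The median difference, R minus Y, was 0.007 and the median size of the difference was 0.386 on the log2 scale, and 85.5% of clusters differed by less than 1 log2 unit, that is by less than 2-fold on this scale. The replicates themselves differed nearly as much. Between 2 libraries of R the median size of the log2 difference was 0.441 on average (0.416 to 0.460 over 3 pairs), and between 2 libraries of Y it was 0.477 (0.443 to 0.496 over 3 pairs). Between a library of R and one of Y it was 0.547, from 0.524 to 0.578 over 9 pairs. Every pair that crossed the periods therefore lay above every pair within them, by a small margin.

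That margin was wider among abundant clusters. For the 1120 clusters with a mean of at least 100 TPM over the 6 libraries, the same median was 0.151 within R, 0.230 within Y and 0.347 between R and Y. Libraries of R lay closer to each other than libraries of Y did. The 20 most abundant clusters of each period gave 29 in all, of which 11 were in both lists and 25 differed by less than 1 log2 unit. None of the 29 was called by limma at an adjusted p under 0.05; 10 had an unadjusted p under 0.05, and 3 were called in a fit on the 6 libraries alone.

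In all, 506 clusters passed the test, which is 0.625% of those tested (limma on all 15 libraries, Benjamini-Hochberg adjusted p under 0.05), against 7418 at an unadjusted p under 0.05. Of these, 274 were higher in R, or 0.338% of those tested, and 232 were higher in Y, or 0.286%. Which direction had more calls was not stable: with no filter 122 were higher in R and 148 in Y, without R replicate 1 the counts were 153 and 162, and without Y replicates 2 and 3 they were 124 against 140 and 124 against 141. All but 10 of the 506 differed by at least 1 log2 unit, since 496 did, and 274 differed by at least 2. In all 506 the 3 values of R and the 3 values of Y did not overlap, as was the case for 16224 of the 81003 tested clusters. Of the 506, 356 reached 1 TPM in the libraries of only 1 period and so had to differ. The other 150 did not pass the filter in this way. The sizes, the lack of overlap and the shares of TPM that follow are therefore in part built in. The calls were a small part of the RNA. Clusters higher in R made up between 0.929% and 0.949% of TPM in the R libraries and between 0.277% and 0.292% in the Y libraries. Clusters higher in Y made up between 0.340% and 0.384% in the Y libraries and between 0.0771% and 0.0820% in the R libraries.

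**Figure D1:**
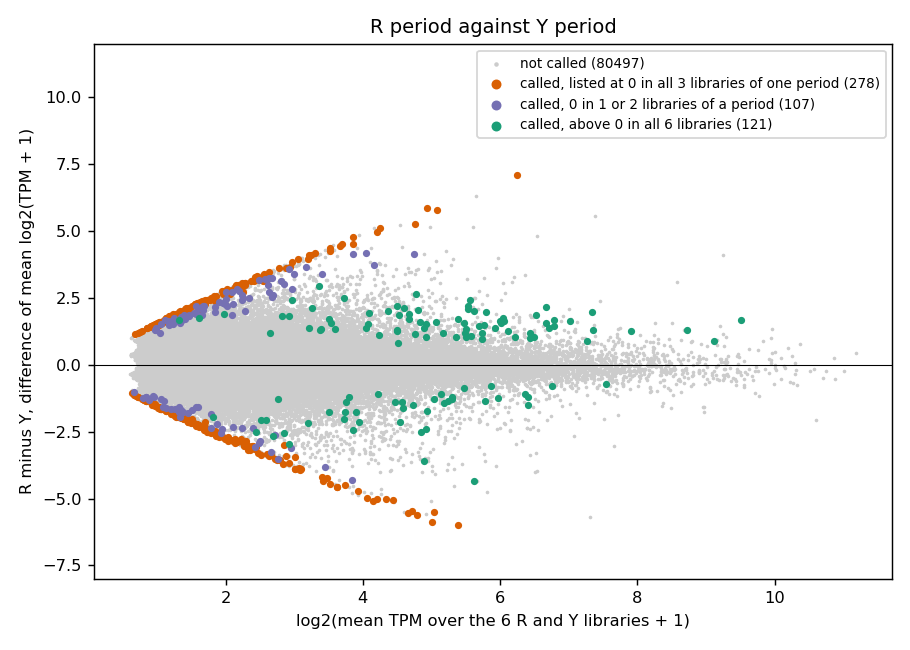
Difference of mean log2(TPM + 1), R minus Y, against abundance, log2 of the mean TPM over the 6 libraries plus 1, for 81003 tested transcript clusters (points). Called clusters listed at 0 in 1 period (278) run along the outer edges at low abundance, while the 121 called ones above 0 in all 6 libraries lie inside and extend to higher abundance; grey points are not called.

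The called clusters fell into 2 main kinds. The first were 121 clusters above 0 TPM in all 6 libraries, out of 55142 such clusters tested, or 0.219%. They were 78 higher in R, or 0.141% of the 55142, and 43 higher in Y, or 0.078%. The second were 278 clusters listed at 0 in all 3 libraries of one period, 129 at 0 in Y and 149 at 0 in R. The remaining 107 were listed at 0 in 1 or 2 libraries of a period, 67 higher in R and 40 higher in Y. The kinds differ in what their calls can show. A cluster reaching 1 TPM in the libraries of only 1 period passes the filter through that period alone and had to differ; 3202 of the tested clusters were of this kind, and 356 of the 506 calls.

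The 121 clusters above 0 in all 6 libraries were mostly of moderate to high abundance. The 78 higher in R had a median R mean of 57.0 TPM, from 2.80 to 1111 TPM, and a median difference of 1.56 on the log2 scale, from 0.83 to 2.97. Their median ratio of mean TPM, R over Y, was 3.01. The 43 higher in Y had a median Y mean of 36.8 TPM, from 4.60 to 232.7 TPM, and a median difference of -1.50, from -0.73 to -4.33, with a median ratio of 2.98 of Y over R. The median SD within a period on the log2 scale was 0.201 for the former and 0.258 for the latter, against 0.359 over all tested clusters above 0 in all 6 libraries. That background is of lower abundance, with a median of 4.99 TPM in the higher period. Over all tested clusters the median SD was 0.278 from 10 to 100 TPM and 0.182 at 100 TPM or more. A small spread is part of what the test selects on. Of these clusters, 3 of the 78 and 1 of the 43 reached 1 TPM in the libraries of only 1 period and so had to differ. Without them the median R mean of the other 75 was 61.4 TPM, from 7.72 TPM, with a median difference of 1.54, and the median Y mean of the other 42 was 37.5 TPM, from 8.13 TPM, with a median difference of -1.49.

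The number of these calls depended on the clusters tested with them and on single libraries. With the tested clusters restricted to the 55142 above 0 in all 6 libraries, a choice made after seeing the data, 46 were called, 33 higher in R and 13 higher in Y (limma), and all 46 were among the 121. Without R replicates 1, 2 and 3, such calls numbered 31, 24 and 29 higher in R and 21, 12 and 12 higher in Y. Leaving out Y replicates 1, 2 and 3 in turn gave 47, 30 and 38 higher in R and 12, 9 and 11 higher in Y. All calls together fell to 315, 265 and 284 when R replicates 1, 2 and 3 were left out in turn, and to 304, 264 and 265 for those of Y.

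Cluster-64249.125284 was the most abundant cluster called higher in R. In replicates 1, 2 and 3 of R its level was 1016, 1207 and 1110 TPM, and in those of Y it was 342, 378 and 327 TPM. The lowest R library was above the highest Y library by a wide gap. The means were 1111 ± 95.4 TPM in R and 349 ± 25.8 TPM in Y (SD, n = 3 each), a ratio of 3.18 and a log2 difference of 1.67 ± 0.22 (SE; 95% interval 1.200 to 2.133; adjusted p 0.00248, limma). In the fit on the 6 libraries alone the adjusted p was 0.00648. The other periods fell on both sides: G averaged 172 ± 41.2 TPM, below Y, while P averaged 1322 ± 105 TPM and B 1827 ± 595 TPM (SD, n = 3 each). In order of mean level the periods were G, Y, R, P and B; only P and B overlapped, the lowest B library, at 1299 TPM, lying within the P values of 1251 to 1442 TPM, and every R library lay below both.

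Cluster-64249.115138 had the largest difference among the clusters higher in R that were above 0 in all 6 libraries and averaged at least 10 TPM in R. In replicates 1, 2 and 3 of R its level was 15.5, 14.2 and 21.2 TPM, and in those of Y it was 0.24, 0.98 and 3.76 TPM. The groups did not overlap, but the Y values were spread widely. The means were 17.0 ± 3.70 TPM in R and 1.66 ± 1.86 TPM in Y (SD, n = 3 each), a log2(TPM + 1) difference of 2.97 ± 0.41 (SE; 95% interval 2.08 to 3.85; adjusted p 0.00395, limma). With the 6 libraries alone the call was lost, at an adjusted p of 0.0662. G was at the level of Y, with a mean of 1.31 ± 0.391 TPM, B was near R, with 12.9 ± 4.27 TPM, and P was highest, with 50.3 ± 6.40 TPM (SD, n = 3 each). Y and G did not differ beyond their spread in this order, nor did B and R.

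Cluster-64249.132497 was the most abundant cluster called higher in Y. In replicates 1, 2 and 3 of Y its level was 227, 221 and 251 TPM, and in those of R it was 132, 144 and 144 TPM. The difference was small and even. The means were 232.7 ± 15.8 TPM in Y and 140.1 ± 6.58 TPM in R (SD, n = 3 each), a ratio of 1.66 of Y over R and a log2 difference, R minus Y, of -0.73 ± 0.13 (SE; 95% interval -1.004 to -0.450; adjusted p 0.0209, limma). R was the lowest of the 5 periods, with P at 177.5 ± 11.5, B at 201 ± 16.9 and G at 307 ± 33.6 TPM (SD, n = 3 each). The call was lost without any 1 of the 6 libraries: the adjusted p was 0.103, 0.0817 and 0.0774 when R replicates 1, 2 and 3 were left out in turn, and 0.0722, 0.0638 and 0.102 for those of Y.

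Cluster-64249.73117 had the largest difference among the clusters higher in Y by the same rule. In replicates 1, 2 and 3 of Y its level was 53.1, 113 and 111 TPM, and in those of R it was 0.99, 5.27 and 5.73 TPM. Replicate 1 was the lowest library in both periods, and the groups were far apart. The means were 92.2 ± 33.9 TPM in Y and 3.997 ± 2.61 TPM in R (SD, n = 3 each), a log2(TPM + 1) difference, R minus Y, of -4.33 ± 0.74 (SE; 95% interval -5.936 to -2.730; adjusted p 0.0174, limma). The call was lost without R replicate 1 (0.0789), Y replicate 2 (0.0824) or Y replicate 3 (0.0812). The other periods did not follow Y and R in order: G averaged 0.993 ± 0.967 TPM, B 35.3 ± 36.1 TPM and P 328 ± 282 TPM (SD, n = 3 each). In P the libraries ran from 133 to 652 TPM.

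**Figure D2:**
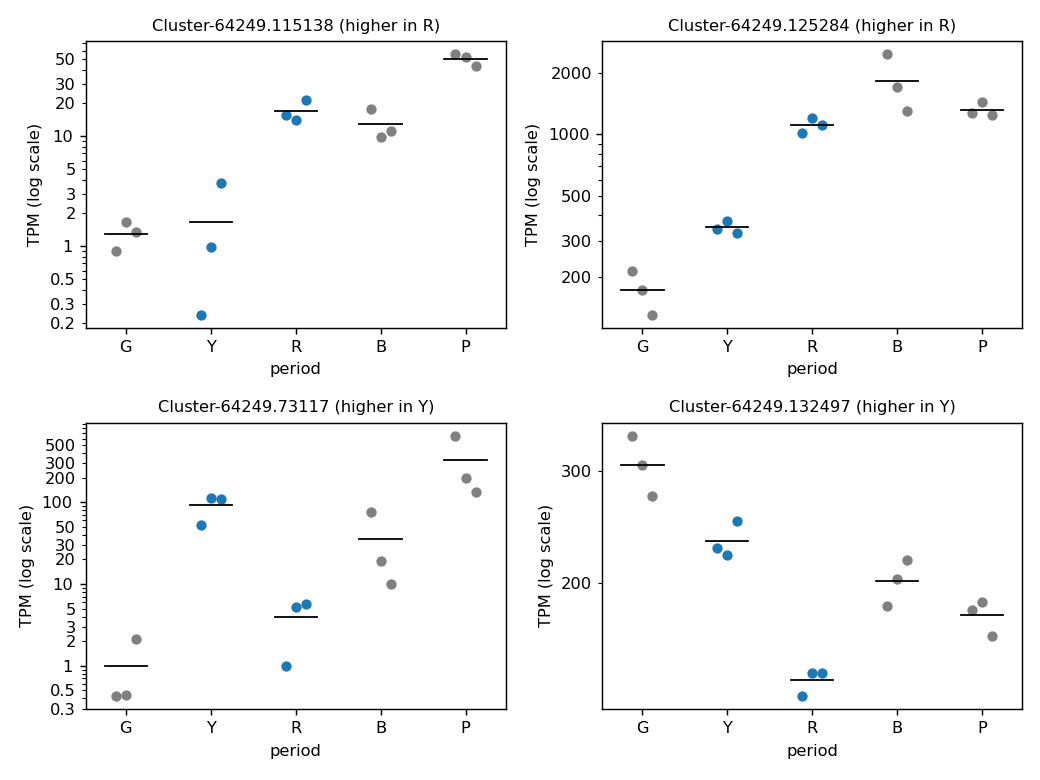
TPM on a log axis in each of the 15 libraries, by period, for the 4 named transcript clusters; points are libraries, blue for Y and R, grey for the others, and bars are means of 3. In every panel the R and Y points are separate; Cluster-64249.125284 stands at 349 TPM in Y and 1111 TPM in R on average, with G below both and B and P above R.

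Among clusters with a mean of at least 100 TPM, calls were mostly higher in R. Of the 1120 tested, 15 were called, or 1.34%, with 13 higher in R, or 1.16%, and 2 higher in Y, or 0.179%. The 13 had means from 150 to 1111 TPM in R and from 36.5 to 385 TPM in Y, and ratios of R over Y from 1.88 to 4.53 with a median of 2.84. Replicates of one period were tight in these 13, with a median coefficient of variation of 8.67% and a highest of 25.2%. The test selects in part on a small spread, and over all 1120 the median SD within a period was 0.182 on the log2 scale. In the fit on the 6 libraries alone all 13 were also called, as was 1 of the 2 higher in Y. B lay above Y in all 13, and so did P; G lay below Y in 12. Without R replicates 1, 2 and 3 the 13 became 8, 7 and 9 and without any 1 of the Y libraries 9; the 2 higher in Y became 7 without P replicate 3, 4 without B replicate 1, 1 without R replicate 1 and 0 without any of the other 5 R and Y libraries. Without all P libraries the counts were 20 and 10, and with the tested clusters restricted to those above 0 in all 6 libraries they were 8 and 0. Settings of the model moved them too. The counts were 7 and 0 without a variance trend, 11 and 0 with the replicate number as a block, and 45 and 26 with library weights.

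Many abundant clusters differed by a large amount without being called. In the same class of 1120, 83 differed by at least 1 log2 unit, 48 higher in R and 35 higher in Y. Of the 48, 11 were called. Of the 35, limma with all 15 libraries called 0, while 15 had an unadjusted p under 0.05 and 8 were called with the 6 libraries alone. The R and Y values did not overlap in 30 of the 37 uncalled clusters higher in R and in 30 of the 35 higher in Y, where 46.5% of all 1120 did not overlap. Picking clusters by the size of the same difference favours a lack of overlap, so these counts are no separate evidence. In the uncalled 35 the median SD on the log2 scale was 0.504 within R and Y and 1.68 within P, and 15 of the 35 were listed at 0 in at least 1 P library. In the 37 the medians were 0.396 within R and Y and 0.859 within P, against 0.214 and 0.195 in the 11 called ones. The spread of P enters the test of R against Y, because the 15 libraries share 1 estimate of spread. Whether it kept these clusters from being called was not tested. With the 6 libraries alone, 11 of the 37 were called. A fit on the R and Y libraries alone called 57 of the 1120, or 5.09%, 40 higher in R, or 3.57%, and 17 higher in Y, or 1.52%. Of these 57, 22 were among the 48 and 8 among the 35, and the others differed by less than 1 log2 unit.

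Cluster-64249.124918, named for its own expression pattern in this series and not by the rule above, is one of the uncalled. In replicates 1, 2 and 3 of R its level was 1917, 1257 and 166 TPM, and in those of Y it was 212, 4.70 and 65.0 TPM, so the periods overlapped. Its log2 difference of 4.10 ± 1.59 (SE) had an adjusted p of 0.408 with all 15 libraries and 0.291 with the 6 alone (limma). In B it ran from 50.9 to 3353 TPM, and in P it was listed at 0 in 2 of 3 libraries.

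The comparison was most precise among abundant clusters. The 95% interval of the difference lay within 1 log2 unit of 0 on both sides for 616 of the 1120 clusters with a mean of at least 100 TPM, or 55.0%. The same held for 42.9% of 14971 clusters from 10 to 100 TPM, for 12.7% of 59413 from 1 to 10 TPM and for 9.89% of 5499 under 1 TPM. The median half-width of the interval was 0.573, 0.755, 1.16 and 1.001 log2 units in these 4 classes, so it was not widest in the lowest class. For clusters whose interval lay within 1 log2 unit of 0, a 2-fold difference between R and Y on the log2(TPM + 1) scale lay outside the interval. For the others, a p that missed the threshold leaves larger differences possible. Of the clusters differing by at least 1 log2 unit, 11256 were not called.

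In most of the 121 called clusters above 0 in all 6 libraries, G lay nearer to Y, and B and P nearer to R. Of the 78 higher in R, G was nearer to Y in 73, or 93.6%, B nearer to R in 68, or 87.2%, and P nearer to R in 60, or 76.9%. G was below both in 57 of the 78, and B was above both in 51 and P in 45. The period means were lowest in G for 57 of the 78 and in Y for 18, and they were highest in B for 38, in R for 21 and in P for 19. Over all 27745 tested clusters above 0 in all 6 libraries with R above Y, G was nearer to Y in 71.9%, but B was nearer to R in 50.6% and P in 26.7%. Of the 27745, G was below both in 16498, B above both in 10716 and P above both in 5121. Called with the R and Y libraries alone were 170 clusters higher in R and above 0 in all 6 libraries. In that fit the spread of the other periods takes no part in the choice. Among the 170, G was nearer to Y in 95.3%, but B was nearer to R in 65.3% and P in 56.5%. B was above both in 73 of the 170, a share near that over all 27745. When the 3 of the 78 that passed the filter through R alone were left out, G was nearer to Y in 71 of 75, B nearer to R in 67 and P in 59. These positions carry no test, since the R and Y libraries that chose the clusters also enter the positions.

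For the 43 clusters higher in Y, G was nearer to Y in 32 of 43, or 74.4%, B nearer to R in 35, or 81.4%, and P nearer to R in 32, or 74.4%. The highest period mean was that of Y in 22 and of G in 18, and the lowest was that of R in 20, of B in 12 and of P in 10. Over the 27397 tested clusters above 0 in all 6 libraries with Y above R, the shares were 41.2% for G nearer to Y, 64.8% for B and 81.4% for P nearer to R. For P, the share among the 43 was below that over all clusters, but among the 112 higher in Y called with the R and Y libraries alone it was above it, at 93.8%. In the same 112, B was nearer to R in 94.6% and G nearer to Y in 70.5%. Which direction showed the higher shares for B and P therefore turned with the fit.

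**Figure D3:**
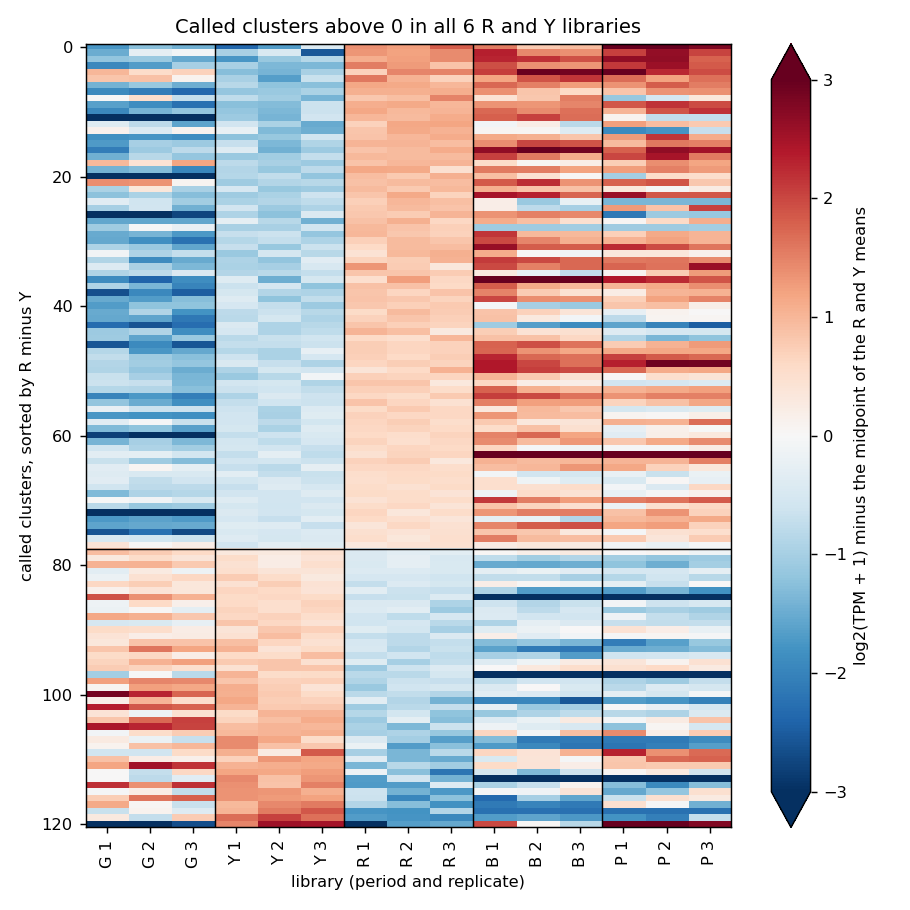
Level of the 121 called transcript clusters above 0 in all 6 R and Y libraries (rows, sorted by R minus Y) in each of the 15 libraries (columns), as log2(TPM + 1) minus the midpoint of the R and Y means, red above it and blue below; a horizontal line divides the 78 higher in R from the 43 higher in Y. In most upper rows G is blue like Y while B and P are red like R, and the reverse holds in most lower rows, with single rows that go against it.

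Libraries that take no part in R against Y mostly gave the same direction. The difference B minus G uses none of the 6 libraries, and B minus G was above 0 in 75 of the 78 clusters higher in R, with a median of 2.44 on the log2 scale, and in 64.8% of all tested clusters above 0 in all 6 libraries with R above Y. It was below 0 in 39 of the 43 higher in Y, with a median of -1.55, and in 54.4% of those with Y above R. The 15-library fit shares its estimate of spread between these contrasts, so the same was taken over the clusters called with the R and Y libraries alone, 170 higher in R, or 0.308% of the 55142 above 0 in all 6, and 112 higher in Y, or 0.203%. Over all tested clusters that fit called 0.828%. B minus G was above 0 in 147 of the 170, or 86.5%, and below 0 in 102 of the 112, or 91.1%. P minus G was above 0 in 137 of the 170, or 80.6%, and below 0 in 105 of the 112, or 93.8%, against 44.2% and 71.2% of all tested clusters above 0 in all 6 libraries with R above Y and with Y above R.

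Many of these clusters also passed the test of B against G. Of the 170, 101 were called higher in B and 3 higher in G, and of the 112, 68 were called higher in G and 2 higher in B (limma on 15 libraries, adjusted p under 0.05). B against G called 8.97% of all tested clusters, and among those above 0 in all 6 R and Y libraries 5.91% were higher in B and 5.69% higher in G. Within the latter, 9.25% of those with R above Y were called higher in B. Of those with Y above R, 8.65% were called higher in G. These backgrounds were not matched to the 170 and 112 for abundance or spread. Cluster-64249.125284 follows this pattern, and Cluster-64249.73117, at 92.2 TPM in Y, 0.993 in G and 35.3 in B on average, goes against it.

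**Figure D4:**
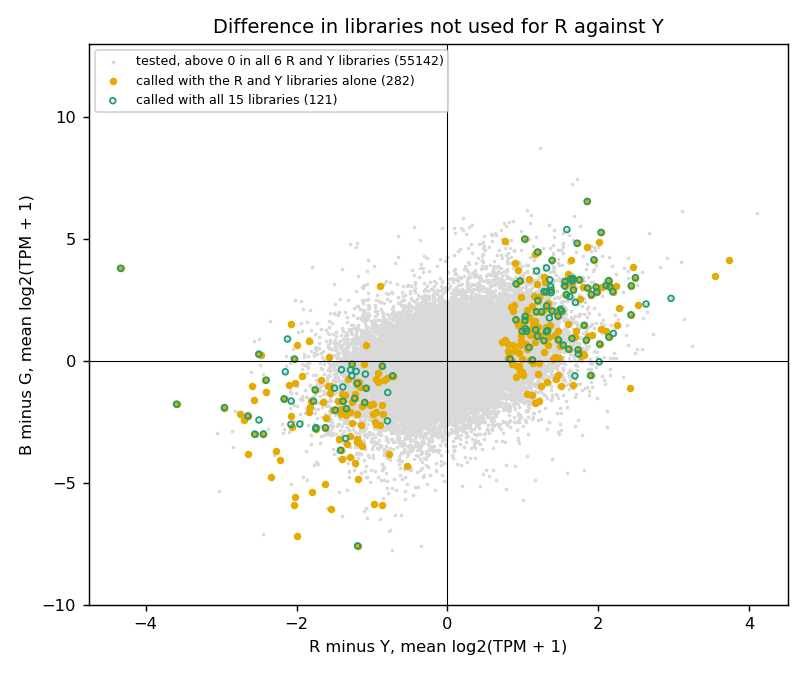
B minus G against R minus Y, both as differences of mean log2(TPM + 1), for 55142 tested transcript clusters above 0 in all 6 R and Y libraries (grey); filled points are the 282 called with the R and Y libraries alone and open circles the 121 called with all 15. Most called points lie in the upper right and lower left parts, 147 of 170 and 102 of 112 for the filled ones.

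Presence in one of the periods and absence in the other was counted in both directions, without a test. Clusters reaching 1 TPM in each of the R libraries and listed at 0 in all 3 Y libraries numbered 518, and the reverse numbered 506. Most were low, with medians of 3.53 TPM in R and 3.89 TPM in Y; 74 of the 518 and 86 of the 506 averaged at least 10 TPM, and the highest averaged 149.7 TPM in R and 81.5 TPM in Y. Of the 518, 129 were called, and of the 506, 149 (limma). Since they passed the filter through one of the periods, these calls are given as a description only.

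Clusters of the first set were most often also found in B, and those of the second in G. Of the 518 present in R, 122 were above 0 in all 3 B libraries, or 23.6%, against 36 in G and 35 in P, or 6.95% and 6.76%. Of the 506 present in Y, 59 were above 0 in all 3 G libraries, or 11.7%, against 33 in B and 22 in P, or 6.52% and 4.35%. Over all tested clusters these shares were 67.4% for B, 63.6% for G and 48.4% for P. Listed at 0 in all 9 other libraries were 47 of the 518, or 9.07%, and 81 of the 506, or 16.0%, against 1.48% of all tested clusters.

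The calls among them leaned towards clusters found nowhere else. All 47 of the clusters present in R alone were called, and 79 of the 81 present in Y alone. Of those above 0 in exactly 1 other library, 26 of 75 present in R and 30 of 86 present in Y were called. Libraries listed at 0 add no spread to the limma estimate, so p-values for such clusters do not measure the spread within the period where they are expressed. With the 6 libraries alone, 63 of the 129 and 67 of the 149 were called. The 129 became 79 and 80 when R replicate 2 or 3 was left out, and 63, 57 and 59 when Y replicate 1, 2 or 3 was. The 149 became 95, 88 and 94 when R replicate 1, 2 or 3 was left out.

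**Figure D5:**
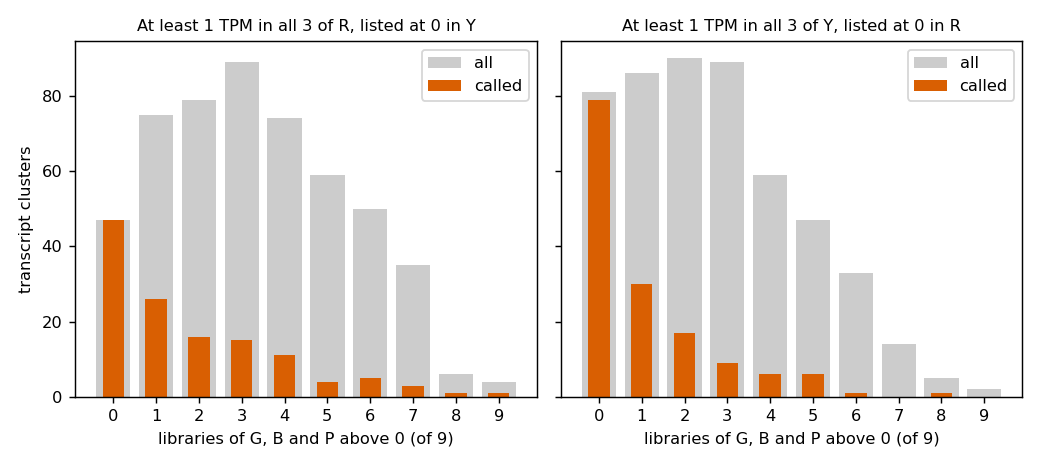
Number of transcript clusters reaching 1 TPM in each library of R and listed at 0 in Y (left, 518) or the reverse (right, 506), by how many of the 9 G, B and P libraries were above 0; grey bars are all such clusters, orange bars those called. The called ones gather at 0 other libraries, 47 on the left and 79 on the right.

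The share called was also counted by identifier, without a test. Of the 907 tested clusters whose identifier lacks the most common number prefix, 20 were called, or 2.21%. Of the 80096 with that prefix, 486 were called, or 0.607%. The 20 include clusters that passed the filter through the R libraries alone or through the Y libraries alone, and so had to differ. How far such clusters account for the higher share was not tested. What the prefix stands for is not given in the sources used here.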

How the data were processed

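TPM values were deposited by the authors as 1 table of transcript clusters by library, per the file's name and its column sums. No label or header names an aligner, assembler or quantifier, and only the mouse builds GRCm38 and mm10 stand in the submitters' processing notes. All 15 columns matched a library by title.

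Clusters with TPM of at least 1 in at least 3 of the 6 R and Y libraries were transformed to log2(TPM + 1), with a pseudocount of 1. A limma model (3.58.1, R 4.3.3) with 5 period means was fitted to all 15 libraries with a variance trend, and the R minus Y contrast was Benjamini-Hochberg adjusted over 81003 clusters and called under 0.05. The fit was tested on simulated data with the same spread in every period and changes planted only in clusters of at least 10 TPM. This does not cover periods of unequal spread or clusters listed at 0 throughout a period. Descriptions used Python 3.11.15, pandas 2.3.3 and NumPy 2.4.6.

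Up to 2 clusters per direction were named by rule: the most abundant called one, and the one with the largest difference among called ones above 0 in all 6 libraries with a mean of at least 10 TPM in the higher period. The periods, tests and lists were chosen with earlier results of these data known.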

Additional observations from a re-analysis of the deposited data

How the results depend on the processing

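Counts of calls moved with the setting, many by over 1.5 times. Calls higher in R outnumbered those higher in Y in 24 alternatives, and the reverse held in 4. None of the 4 named clusters changed sign in the alternatives that tested them, but this carries little weight. Their R and Y values did not overlap, so leaving out 1 library could not reverse the sign. Changes of filter or variance trend leave the difference itself as it was. Cluster-64249.115138 was not tested with a mean of at least 10 TPM. Neither it nor Cluster-64249.73117 was tested with at least 1 TPM in all 6 libraries. With TPM of at least 1 in 3 of 15 libraries, 301 clusters were called (152 higher in R, 149 in Y); 42 and 23 were above 0 in all 6 libraries and 85 were listed at 0 in Y. With no filter, 270 were called (122 and 148), with 30 and 10 above 0 in all 6 and 79 at 0 in Y. With a mean of at least 10 TPM, 138 were called (86 and 52), 9 of them at 0 in Y and 14 at 0 in R. The 3 filters chosen after seeing the data called 46 (33 and 13) with the main filter and above 0 in all 6 libraries, 43 (31 and 12) with above 0 in all 6 alone, which tested 70397 clusters, and 54 (37 and 17) with at least 1 TPM in all 6, with 0 listed at 0 in a period by construction. Library weights called 1595 (897 and 698), with 396 and 250 above 0 in all 6, 278 at 0 in Y and 283 at 0 in R. Calls above 0 in all 6 libraries were 170 higher in R and 112 in Y with the R and Y libraries alone, 76 higher in Y without P, 41 higher in R without a variance trend, and 27 higher in Y with a pseudocount of 0.1. The fit on the R and Y libraries alone called 671, of which 240 were among the 506. Median-ratio scaling called 452, of which 442 were among the 506, and moved the median difference from 0.007 to -0.005. The causes of these shifts, other than the filters' own, were not tested.

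Leaving out 1 of the 15 libraries gave 264 to 623 calls, 124 to 350 higher in R and 132 to 273 higher in Y. Above 0 in all 6 libraries it gave 24 to 109 higher in R and 9 to 58 higher in Y; 57 to 163 were listed at 0 in Y and 88 to 170 at 0 in R. Read depth behind a TPM is unknown and limits the low clusters.

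With the replicate number as a block, 342 clusters were called, 48 higher in R and 24 in Y above 0 in all 6 libraries, and Cluster-64249.132497 had an adjusted p of 0.0599 (limma). Deviations of same-numbered R and Y libraries correlated at 0.02, 0.001 and 0.02, and those of other pairs at -0.02 to 0.001. Whether the numbers pair the samples is not given in the labels, and 3 libraries a period cannot settle it. The adjusted p of Cluster-64249.125284 ranged from 0.000247 to 0.0195 over all alternatives. Cluster-64249.132497 was also not called without a variance trend (0.223), nor with the filters of above 0 (0.123, or 0.0917 with the main filter too) and at least 1 TPM (0.0658) in all 6 libraries.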
